A study of Mus musculus with 7 samples.

Results

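Potassium channel genes were examined in RNA from mouse hippocampus, in a pull-down of ribosomes from GABAergic neurons and in RNA that was not pulled down. The members are the protein-coding genes whose symbol starts with Kcn and whose counts, summed over the 7 libraries, reached 50. These were 81 of the 94 such symbols in a table of 39017 gene IDs. The members nearest to that limit were Kcnn4 and Kcnk5, with 53 and 61 counts, and just under it lay Kcnq1 with 45 and Kcne3 and Kcnk15 with 31 each. A filter on low counts, applied to all genes alike, kept 80 of the 81 members for testing and removed Kcnn4.

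Potassium channels let potassium leave or enter the cell and so set the resting potential, the shape of the action potential and the rate at which a neuron fires. Voltage-gated (Kv) channels open on depolarization, calcium- and sodium-activated channels open when these ions enter, inward rectifiers (Kir) pass current best near rest, and two-pore-domain (K2P) channels carry leak currents. GABAergic interneurons of the hippocampus include fast-spiking cells that are known for Kv3 channels, while A-type Kv4 channels and M-type Kcnq channels are well studied in pyramidal cells. Astrocytes, the choroid plexus, mural cells of vessels and microglia have channels of their own.

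The assay was translating ribosome affinity purification (TRAP), in which ribosomes that carry the ribosomal protein L10 fused to EGFP are captured with the RNA they translate. The labels describe GAD2 cre+ animals crossed with L10-EGFP+ mice and, for a TRAP sample, a pool of 2 hippocampi. The bound group has 3 libraries (titles GAD_ctrl1 to GAD_ctrl3) and the unbound group has 4, of which replicates 1 and 2 are titled UBS7 and UBS8 and replicates 3 and 4 UBGS8 and UBGS9. The labels give no age, sex, drug, batch or animal, and they do not say what the UBS and UBGS titles stand for or that each library came from other animals, and every p-value therefore refers to library-to-library spread, which may be technical. Gad2-driven Cre leaves its mark in every cell that has expressed Gad2, and the unbound RNA comes from all cells of the tissue, GABAergic neurons among them.

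Library totals ranged from 38690380 to 51953811 counts. All 8 GABAergic markers were higher in bound libraries, with summed levels of 3144 to 3587 CPM (counts relative to the TMM-scaled library total) against 540.1 to 647 CPM. All 6 excitatory neuron markers were lower (754 to 952 against 3639 to 5732 CPM). Of 6 astrocyte markers 5 were lower, as were all 6 oligodendrocyte markers, all 4 of oligodendrocyte precursors, 4 of 6 of endothelial and mural cells, and all 3 of the choroid plexus and of the meninges, and none of these lists held a higher member. All 6 microglia markers were higher in bound libraries. No marker was at 0 in all bound libraries. These libraries are bulk RNA, in which fewer cells of a type and less RNA per cell cannot be told apart. Bound RNA was captured with ribosomes and unbound RNA was not pulled down. A difference in how much of a transcript is on ribosomes therefore cannot be told apart from these either.

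Of the 80 members tested, 20 were higher and 38 lower in bound libraries at an adjusted p under 0.05 (edgeR, adjusted over all 19563 genes tested). Over all genes, 61.7% were called, 31.0% higher and 30.7% lower. Among members 25.0% were called higher and 47.5% lower. The median log2 fold change (bound minus unbound) was −0.36 for members and −0.008 for all genes tested. At least 2-fold differences were called for 16 higher and 30 lower members, where 14.6% of all genes were called at least 2-fold higher and 17.8% at least 2-fold lower. The groups were free of overlap for 56 of the 80 members (70.0%), against 63.3% of all genes. Scaling by library totals moved the median of all genes to 0.43 and gave 29 higher and 31 lower members, so that 48.3% of the calls were higher in place of 34.5%. The member median there was 0.075, and members lay −0.35 from the median of all genes under either scaling, while 47.5% of all genes were called higher and 18.9% lower with library totals. Directions below refer to the main scaling. Library totals can turn the sign of a subfamily median, and among the subfamilies whose medians are given here those of Kcnh and Kcnk did, to 0.42 and 0.29 on the log2 scale.

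**Figure D1:**
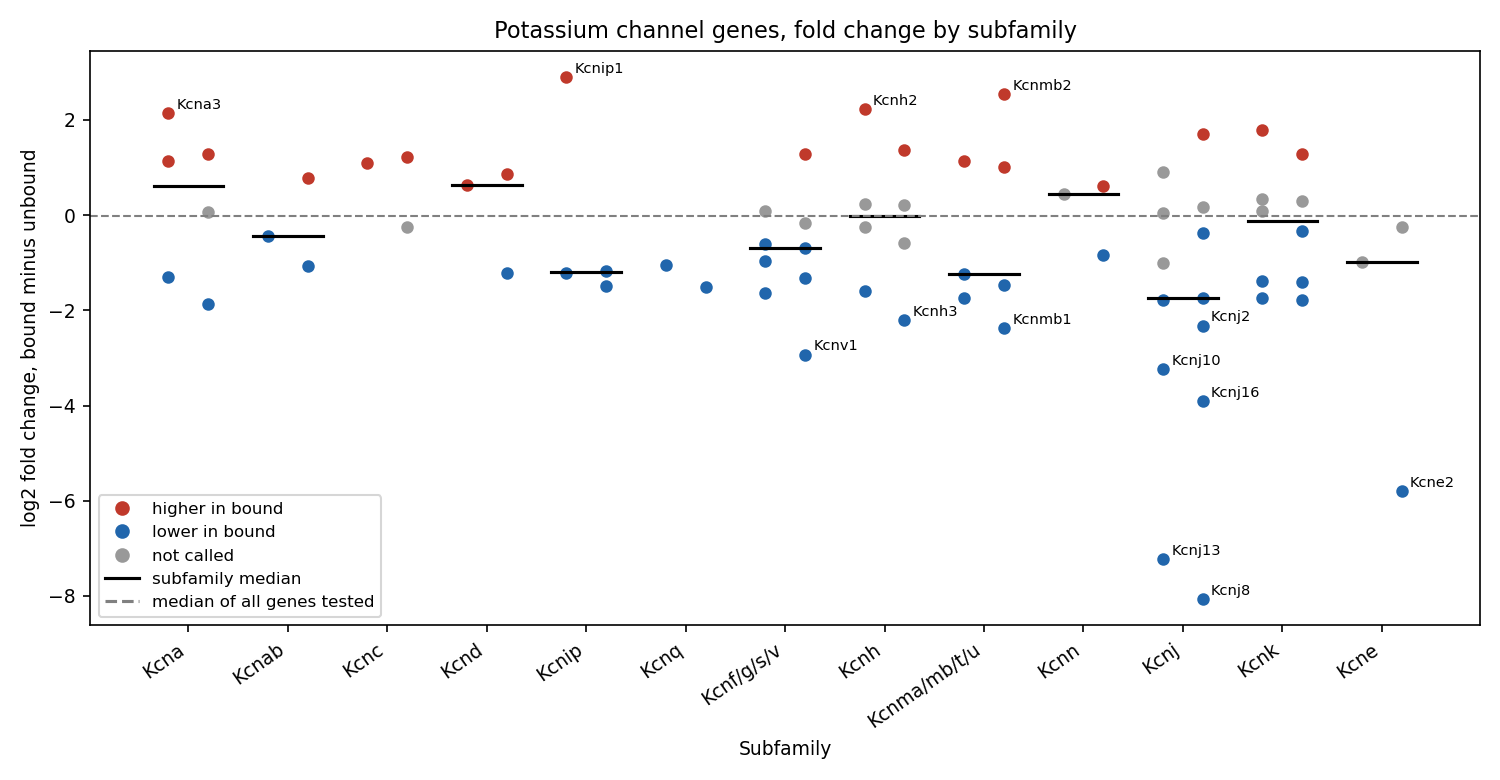
Log2 fold change of 74 tested members (points, vertical axis) by subfamily (horizontal axis), with red for higher, blue for lower and grey for not called, black bars for the medians of subfamilies shown whole and a dashed line for the median of all genes tested. Most subfamilies hold members on either side of the line, and the points below −5 are Kcnj8, Kcnj13 and Kcne2.

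Levels were compared between genes per length, as RPKM (reads per kilobase of merged exons, scaled to library size), which depends on the annotated exons of each gene. In bound libraries the highest member was Kcnc1 at 30.2 ± 3.48 RPKM (SD, n = 3), followed by Kcnc2 (25.6 ± 2.02), Kcna1 (25.5 ± 1.12), Kcnab2 (22.0 ± 2.62) and Kcnip1 (20.97 ± 2.33). The spreads of these neighbours overlapped. In unbound libraries Kcna1 stood first at 62.8 ± 4.14 RPKM (SD, n = 4), followed by Kcnab2 (46.5 ± 2.90) and Kcnq3 (40.7 ± 0.792). Kcnc1 ranked 12 and Kcnip1 42 of 81 in unbound RNA. Kcna1 stood clear of Kcnab2 in unbound RNA by more than their SDs.

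Kcna genes encode the pore subunits of Kv1 channels, which sit on axons and near the spike initiation site. Of 6 members, 3 were higher and 2 lower (median log2 0.60). Kcna1, the most abundant of them, stood at 127, 123 and 117 CPM in bound replicates 1 to 3 and at 327, 303, 286 and 285 CPM in unbound replicates 1 to 4. Every bound library lay below every unbound one, a 2.46-fold difference (log2 −1.30, SE 0.074, adjusted p = 9.6e-08). Kcna4, an inactivating Kv1 subunit, was lower by a wider margin, at 8.46, 8.07 and 6.83 against 33.7, 25.5, 27.9 and 26.8 CPM (log2 −1.87, SE 0.13, adjusted p = 5.3e-07). Kcna6 went the other way, with 92.9, 97.6 and 118 CPM in bound and 50.7, 41.3, 47.5 and 47.0 CPM in unbound libraries and no overlap (log2 1.14, SE 0.10, adjusted p = 2.2e-06). Its exons share 39.6% of their length with an antisense gene, and since the strand setting of the counting is not given, reads of the pair cannot be told apart.

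Kcna3, a slowly inactivating Kv1 subunit also known from lymphocytes and microglia, had the largest rise of the subfamily. It stood at 18.9, 15.8 and 13.4 CPM in bound and 3.73, 3.02, 3.97 and 3.80 CPM in unbound libraries (log2 2.14, SE 0.16, adjusted p = 8.2e-07), and bound replicate 1 was the highest. Microglia markers were highest in bound replicate 2, at summed levels of 182, 454 and 149 CPM, and without that replicate Kcna3 stood at log2 2.16. The part of microglia in the result was not tested. Kcna2, another axonal subunit, had overlapping groups (log2 0.070, adjusted p = 0.55) but was called higher with library totals (log2 0.50) and with a correction for exon length (log2 0.61). The low-level Kcna5 was higher at 2.11, 1.36 and 2.79 against 0.411, 0.818, 1.22 and 0.963 CPM (log2 1.28, adjusted p = 0.018), a call lost without bound replicate 3 (log2 1.01), with the UBGS libraries alone (log2 0.94) and with the length correction (log2 1.06). Within a library, the ratio of Kcna1 to Kcna6 in RPKM ran from 1.23 to 1.70 in bound and from 7.49 to 9.13 in unbound RNA. This pair, like the others whose ratios are given below, joins members called in opposite directions. A shift of such a ratio between the groups follows from those calls.

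The 3 Kcnab genes encode cytoplasmic beta subunits that bind Kv1 channels, and 1 was higher and 2 were lower. Kcnab2 stood at 114, 115 and 139.7 CPM in bound and 270.5, 276, 246 and 245 CPM in unbound libraries (log2 −1.08, SE 0.089, adjusted p = 1.6e-06). Kcnab1 was lower by a smaller amount (log2 −0.44, adjusted p = 0.0038), a call lost with library totals (log2 −0.011) and with the length correction (log2 −0.082). Kcnab3 was the higher one, at 29.8, 33.2 and 37.7 against 18.3, 17.8, 21.7 and 20.3 CPM (log2 0.78, SE 0.11, adjusted p = 1.2e-04). Its exons overlap those of an antisense gene by 5.13% of their length.

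Kcnc genes encode Kv3 channels, which open at strongly depolarized potentials and close fast, as brief spikes at high rates require. Kcnc1 (ENSMUSG00000058975, chromosome 7 from 46396497 to 46438704 on mm10) was the highest potassium channel gene of the bound libraries per length. It stood at 282, 255 and 321 CPM there and at 125, 119.9, 127 and 122 CPM in unbound libraries. The groups were well apart, and the difference was 2.32-fold (log2 1.21, SE 0.079, adjusted p = 2.6e-07). Kcnc2 (chromosome 10 from 112271121 to 112467024) had 192, 166 and 189.6 CPM in bound and 91.4, 81.7, 83.1 and 85.6 CPM in unbound libraries, again with no overlap (log2 1.09, SE 0.075, adjusted p = 3.6e-07). Kcnc4, the Kv3 gene of an inactivating subunit, was at 32.4, 31.7 and 36.4 against 42.8, 45.04, 36.0 and 36.0 CPM and did not pass (log2 −0.26, adjusted p = 0.059). It was called lower without bound replicate 3 (log2 −0.32), without unbound replicate 4 (log2 −0.30), with the UBS libraries alone (log2 −0.39), with the length correction (log2 −0.31) and with DESeq2, and stood at log2 0.18 with library totals. The subfamily took 17.4% ± 1.53 (SD, n = 3) of the summed RPKM of all members in bound and 8.26% ± 0.195 (SD, n = 4) in unbound libraries. That sum was itself lower in bound (428 to 443 RPKM) than in unbound libraries (574 to 618 RPKM). A share can therefore rise by more than the level of its genes.

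**Figure D2:**
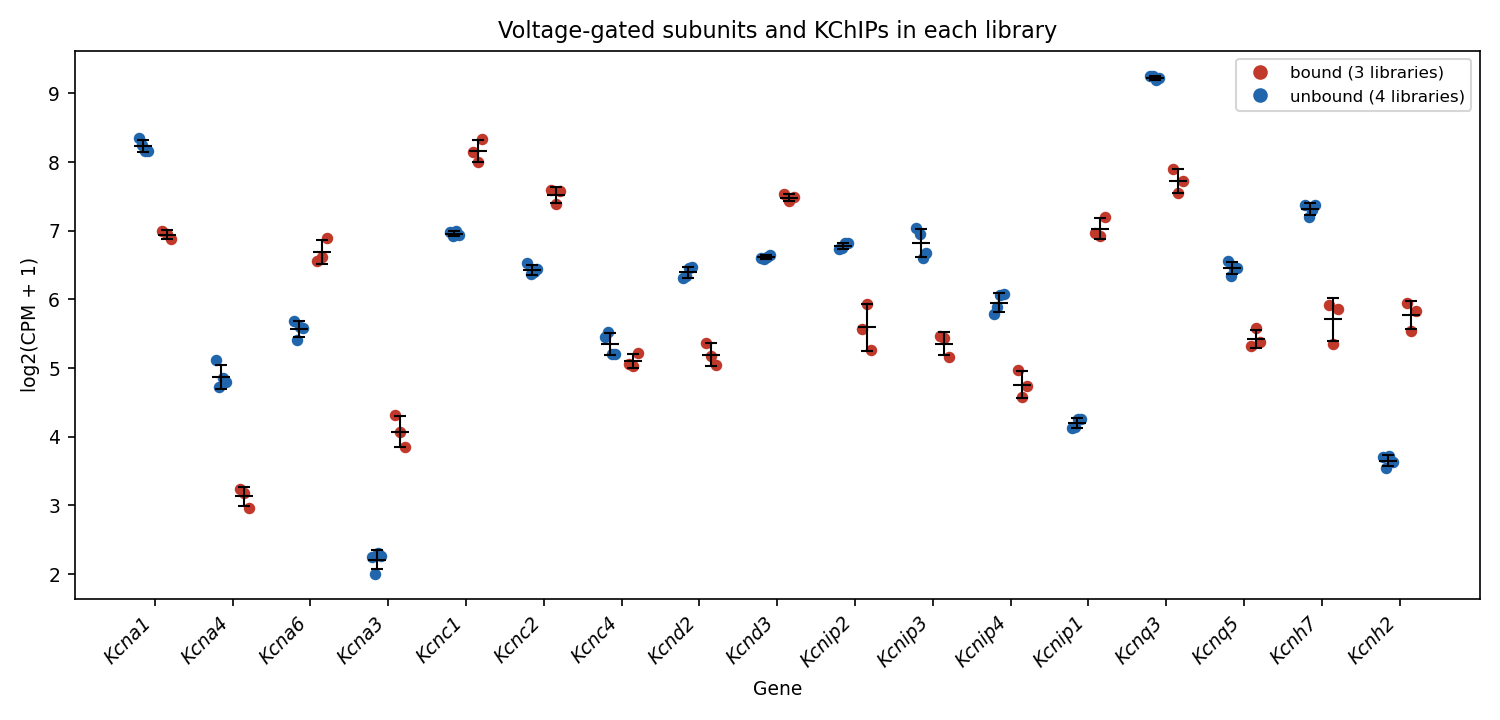
Level of 17 voltage-gated subunit and KChIP genes in each library as log2(CPM + 1), red for bound and blue for unbound libraries, with black bars for the mean and SD of these log values. The groups stand apart for Kcna3, Kcnc1, Kcnd3, Kcnip1 and Kcnh2 with bound above unbound, and for Kcna1, Kcnd2, Kcnip3, Kcnq3 and Kcnh7 the other way round.

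Kcnd genes encode the pore subunits of Kv4 channels, whose A-type current delays the first spike and damps dendritic signals, and 2 of the 3 members were higher and 1 lower. Kcnd2, the Kv4 gene best known from pyramidal cell dendrites, stood at 40.3, 35.2 and 31.9 CPM in bound and 78.4, 80.0, 87.2 and 87.6 CPM in unbound libraries (log2 −1.22, SE 0.094, adjusted p = 9.3e-07). Kcnd3 was higher, at 184, 171 and 179 against 96.6, 95.4, 96.9 and 99.6 CPM (log2 0.87, SE 0.061, adjusted p = 4.2e-07), and Kcnd1 was too (log2 0.63, adjusted p = 0.0022). None of the 3 genes had overlapping groups. Per length, Kcnd3 exceeded Kcnd2 by a factor of 2.45 to 3.02 in bound libraries, whereas in unbound libraries the ratio ran from 0.597 to 0.662.

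Kcnip genes encode KChIPs, calcium-binding proteins that assemble with Kv4 channels and raise their surface level. Kcnip1 (ENSMUSG00000053519, chromosome 11 from 33629339 to 33993152 on mm10) had the largest rise of all members. It stood at 124, 119.8 and 147 CPM in bound and 16.4, 16.7, 18.2 and 18.1 CPM in unbound libraries, a 7.50-fold difference (log2 2.91, SE 0.091, adjusted p = 1.4e-09). Its lowest bound library was far above its highest unbound one. The other KChIP genes were all lower. Kcnip3, also known as the transcriptional repressor DREAM, stood at 43.0, 42.2 and 34.7 against 131, 122, 96.5 and 101 CPM (log2 −1.49, SE 0.12, adjusted p = 1.6e-06), and its UBS libraries were above its UBGS libraries. Kcnip2 stood at 46.7, 60.3 and 37.3 against 106, 107, 112 and 112 CPM (log2 −1.18, SE 0.13, adjusted p = 1.9e-05) and Kcnip4 at log2 −1.22. In RPKM within a library, Kcnip1 was 1.62 to 2.41 times Kcnip3 in bound and 0.0719 to 0.108 times Kcnip3 in unbound RNA.

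Kcnq genes encode the Kv7 channels of the M-current, which muscarinic receptors close. Kcnq3, which forms mixed channels with Kcnq5 and other Kv7 subunits, had 238, 187 and 209 CPM in bound and 608, 607, 583 and 599 CPM in unbound libraries, with a wide gap between the groups (log2 −1.50, SE 0.084, adjusted p = 9.0e-08), and log2 −0.83 after the length correction. Kcnq5 was lower as well, at 39.02, 46.7 and 40.6 against 93.4, 80.3, 86.5 and 87.0 CPM (log2 −1.04, SE 0.088, adjusted p = 1.7e-06). The subfamily took 9.19% ± 0.0776 of summed member RPKM in bound and 13.0% ± 0.304 in unbound libraries.

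Kcnb2, which encodes a Kv2 delayed rectifier of the cell body, was not called, with 28.6, 22.7 and 26.7 CPM in bound and 24.3, 29.5, 27.2 and 28.1 CPM in unbound libraries (log2 −0.069, adjusted p = 0.61). The groups overlapped. It was called higher with library totals (log2 0.36) and with the length correction (log2 0.63).

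Kcnf, Kcng, Kcns and Kcnv genes encode electrically silent subunits, which make no channel alone and change Kv2 channels when they join them. Of 9 members, 6 were lower and 1 higher (median log2 −0.69), and with library totals, where Kcng3, Kcns1 and Kcns2 lost their calls (log2 −0.18, −0.51 and −0.25), 3 were lower. Kcnv1 had the largest fall, at 5.44, 4.29 and 2.54 CPM in bound and 30.0, 31.9, 31.8 and 31.8 CPM in unbound libraries (log2 −2.93, SE 0.21, adjusted p = 5.4e-07). Kcng1 stood at 16.9, 17.3 and 6.96 against 31.9, 34.4, 37.0 and 33.8 CPM (log2 −1.32, SE 0.25, adjusted p = 9.1e-04), with bound replicate 3 the lowest. Kcns3, a gene known from parvalbumin interneurons of the cortex, was the higher one at 14.6, 14.9 and 16.8 against 6.26, 6.92, 6.01 and 6.22 CPM (log2 1.28, SE 0.12, adjusted p = 5.4e-06). Kcnf1, the second most abundant per length after Kcng1 over all libraries, was not called (21.8, 23.8 and 18.9 against 24.3, 25.9, 23.3 and 22.6 CPM, log2 −0.16, and 0.28 with library totals). Kcng2, Kcng3, Kcns1 and Kcns2 were lower, from log2 −1.63 to −0.61. The Kcns1 call (log2 −0.96, adjusted p = 0.038) was lost without bound replicate 3 (log2 −0.63) and without any of unbound replicates 1, 2, 3 and 4 (log2 −0.87, −0.91, −0.997 and −1.01).

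Kcnh genes encode the ether-a-go-go families of voltage-gated channels, and of 8 members 2 were higher, 2 lower and 4 not called. Kcnh2 and Kcnh7, both of the ERG branch that helps set the firing threshold and adaptation, stood on opposite sides. Kcnh2 (chromosome 5 from 24319589 to 24351604 on mm10) had 60.8, 45.7 and 55.7 CPM in bound and 12.02, 10.7, 12.1 and 11.4 CPM in unbound libraries, a 4.68-fold difference (log2 2.23, SE 0.11, adjusted p = 4.3e-08). Kcnh7 (chromosome 2 from 62693414 to 63184287) had 59.3, 39.6 and 57.3 CPM in bound and 165, 146, 156 and 165 CPM in unbound libraries (log2 −1.60, SE 0.13, adjusted p = 1.3e-06), with log2 −0.90 after the length correction. Neither gene had overlapping groups, and the ratio of Kcnh2 to Kcnh7 in RPKM ran from 3.05 to 3.62 in bound and from 0.216 to 0.244 in unbound libraries. Kcnh6, the third ERG gene, was higher from a low level (log2 1.38, adjusted p = 0.0043). Kcnh3, of the ELK branch and prominent in forebrain excitatory neurons, had the largest fall of the subfamily, 4.83, 3.89 and 4.76 against 18.5, 20.7, 22.7 and 20.8 CPM (log2 −2.20, SE 0.13, adjusted p = 1.6e-07). Kcnh1, the founding EAG gene, gave 58.1, 44.0 and 47.4 against 48.3, 39.3, 40.2 and 41.2 CPM with overlapping groups (log2 0.24, adjusted p = 0.087), and it was called higher without bound replicate 2 (log2 0.32), without unbound replicate 1 (log2 0.33), with library totals (log2 0.68) and with the length correction (log2 0.53). Kcnh4, Kcnh5 and Kcnh8 were not called.

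The DNA upstream of a RefSeq start of 4 called members is shown so that members called in opposite directions can be compared, with 2 members that were higher and 2 that were lower. They are the most abundant in each direction among members with a difference of at least 2-fold, a single RefSeq start and a start found in the GENCODE transcripts. Each line gives the 250 bases before the RefSeq start (GRCm38.p6, the assembly of mm10) on the strand of the gene, 5′ to 3′, and capitals mark GGGCGG, the GC box word, on either strand.
Kcna6, higher, minus strand, chr6:126740675-126740924: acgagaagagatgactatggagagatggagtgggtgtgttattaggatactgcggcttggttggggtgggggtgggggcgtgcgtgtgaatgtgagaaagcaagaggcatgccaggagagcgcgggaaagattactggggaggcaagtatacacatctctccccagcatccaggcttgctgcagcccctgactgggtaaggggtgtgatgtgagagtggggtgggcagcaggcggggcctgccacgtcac
Kcnh2, higher, minus strand, chr5:24329592-24329841: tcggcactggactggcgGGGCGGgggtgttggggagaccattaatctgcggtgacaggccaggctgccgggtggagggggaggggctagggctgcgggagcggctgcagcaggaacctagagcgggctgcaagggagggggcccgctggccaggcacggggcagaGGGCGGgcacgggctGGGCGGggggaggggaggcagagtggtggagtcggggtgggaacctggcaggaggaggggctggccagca
Kcnh7, lower, minus strand, chr2:63184288-63184537: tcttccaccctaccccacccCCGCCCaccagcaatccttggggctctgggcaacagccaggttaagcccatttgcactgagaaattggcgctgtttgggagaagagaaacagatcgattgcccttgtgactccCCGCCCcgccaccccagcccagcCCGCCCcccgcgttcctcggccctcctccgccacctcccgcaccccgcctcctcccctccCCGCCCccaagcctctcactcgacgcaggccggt
Kcnj10, lower, plus strand, chr1:172340960-172341209: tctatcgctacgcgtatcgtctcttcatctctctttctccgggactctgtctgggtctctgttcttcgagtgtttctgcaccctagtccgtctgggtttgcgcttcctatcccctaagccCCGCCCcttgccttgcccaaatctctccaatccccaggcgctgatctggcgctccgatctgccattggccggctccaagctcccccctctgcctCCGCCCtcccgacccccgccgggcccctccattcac
The Kcnh7 window held 4 GC box words, those of Kcnh2 and Kcnj10 held 3 and 2, and none was found in the Kcna6 window. The Kcnh2 start is an internal one, that of a shorter transcript, so its window lies within an intron of the longer Kcnh2 transcript and not at the 5′ end of the gene. The Kcna6, Kcnh7 and Kcnj10 windows adjoin the 5′ ends of their genes, and that of Kcna6 lies inside an exon of the antisense gene Gm26673.

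RefSeq promoter windows were found for 59 of the 81 members, 83 windows in all, of which windows of the same gene can overlap. GGGCGG occurred in 47.0% of member windows and in 32.7% of all 32851 windows of the same length. The full set covered 27025 genes and was not limited to protein-coding genes or to a minimum count, as the members were. The shares of members and of all windows therefore come from unlike sets of genes. By call, it was in 42.1% of 19 windows of higher members, 44.4% of 45 windows of lower members and 55.6% of 18 windows of members not called. The E-box word CAGCTG was found in 25.3% of member and 13.0% of all windows, and the TATA word TATAAA in 3.61% and 12.4%. Another E-box word, CAGATG, was in 13.3% and 14.4%. The homeodomain word TAATTA and the CRE word TGACGTCA were in none of the member windows and in 4.84% and 1.55% of all windows. All words were searched on both strands and none contains another. The median GC content was 58.8% in member windows and 52.4% in all, and these shares are descriptions of letters in the windows.

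Of the 7 genes of BK channels, sodium-activated channels and Kcnu1, 3 were higher and 4 lower. Kcnma1, which encodes the pore of the large-conductance BK channel, stood at 58.8, 61.2 and 64.2 CPM in bound and 149, 138, 148 and 146 CPM in unbound libraries (log2 −1.25, SE 0.069, adjusted p = 7.8e-08), and after the length correction at log2 −0.47. Its auxiliary subunits went different ways. Kcnmb2, a beta subunit that makes BK channels inactivate, was higher at 19.2, 21.1 and 15.8 against 2.23, 3.62, 3.62 and 3.33 CPM, a 5.81-fold difference (log2 2.54, SE 0.18, adjusted p = 5.7e-07). Kcnmb4, the main beta subunit of neurons, was lower at 4.57, 8.60 and 9.10 against 19.7, 17.5, 23.1 and 21.2 CPM (log2 −1.46, SE 0.22, adjusted p = 1.5e-04), although 31.5% of its exon length overlaps antisense genes. Of the sodium-activated pair, Kcnt1 (Slack) was higher, at 27.9, 35.9 and 29.4 against 15.5, 15.6, 14.9 and 15.4 CPM (log2 1.02, SE 0.11, adjusted p = 1.1e-05). Kcnt2 (Slick) was lower, at 16.1, 12.02 and 10.8 against 54.6, 39.1, 38.9 and 40.4 CPM (log2 −1.74, SE 0.17, adjusted p = 5.5e-06), and its unbound replicate 1 was the highest library. Kcnu1, a channel of sperm, was called higher at 3.41, 3.52 and 2.63 against 1.03, 1.92, 1.46 and 1.38 CPM.

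Kcnn genes encode SK channels, small-conductance calcium-activated channels of the afterhyperpolarization. Of 3 members tested 1 was higher and 1 lower. Kcnn2 was lower, at 19.2, 20.3 and 19.1 CPM in bound and 35.1, 37.3, 34.2 and 33.7 CPM in unbound libraries (log2 −0.84, SE 0.089, adjusted p = 1.0e-05). Kcnn3 was called higher with overlapping groups, 15.6, 19.6 and 10.6 against 8.26, 8.999, 12.3 and 10.5 CPM (log2 0.61, SE 0.20, adjusted p = 0.023). That call was lost without bound replicate 1 or 2 (log2 0.60 and 0.39) and without unbound replicate 1 or 2 (log2 0.55 and 0.58), and with the UBGS libraries alone (log2 0.45). Kcnn1 gave 5.84, 6.05 and 7.67 against 6.02, 4.58, 4.42 and 4.20 CPM and was not called (log2 0.44, adjusted p = 0.064), but passed without unbound replicate 1 (log2 0.58), with the UBGS libraries alone (log2 0.61), with library totals (log2 0.87) and with the length correction (log2 0.50). Kcnn4, the intermediate-conductance channel of blood cells and microglia, had 1, 24 and 15 counts in bound and 3, 6, 2 and 2 counts in unbound libraries and was not tested.

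Kcnj genes encode inward rectifiers, and this subfamily had the lowest median of those with more than 3 members (log2 −1.74), with 8 of 13 members lower and 1 higher. Among the GIRK subunits, which GABA-B and other G-protein-coupled receptors open, Kcnj6 was lower (14.5, 16.3 and 17.2 against 62.6, 48.9, 54.3 and 55.5 CPM, log2 −1.79, SE 0.11, adjusted p = 1.7e-07). Kcnj3 was lower by less, 76.8, 93.1 and 78.7 against 114, 101, 108 and 109 CPM (log2 −0.38, SE 0.085, adjusted p = 0.0024), with 31.1% of its exon length under an antisense gene, and stood at log2 0.056 with library totals. Kcnj9 was not called (28.8, 27.2 and 34.5 against 29.5, 28.4, 30.0 and 28.4 CPM, log2 0.050), except with library totals (log2 0.48). Of the strong rectifiers, Kcnj2 and Kcnj4 were lower (log2 −2.32 and −1.74) and Kcnj12 was higher, at 6.25, 8.15 and 6.71 against 1.65, 2.43, 2.14 and 2.37 CPM (log2 1.71, SE 0.20, adjusted p = 2.8e-05). The KATP pore gene Kcnj11 had overlapping groups (log2 0.16), and passed with library totals (log2 0.60).

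The largest differences in the Kcnj and Kcne genes lay in channels of non-neuronal cells. Kcnj10, the main Kir channel of astrocytes, stood at 11.0, 8.47 and 8.53 CPM in bound and 117, 88.8, 72.9 and 74.1 CPM in unbound libraries, a 9.43-fold difference (log2 −3.24, SE 0.19, adjusted p = 1.1e-07). Its partner Kcnj16 stood at 0.805, 0.608 and 0.204 against 13.3, 9.42, 5.03 and 5.51 CPM (log2 −3.90, SE 0.48, adjusted p = 3.3e-05), with bound replicate 3 the lowest. The astrocyte glutamate transporter gene Slc1a2 had 162, 164 and 145 CPM in bound and 2523, 2405, 1696 and 1715 CPM in unbound libraries. All 3 genes were higher in the UBS than in the UBGS libraries. The summed level of the 6 astrocyte markers was 227 to 249 CPM in bound and 1900.0 to 2812 CPM in unbound RNA, and its part in the result was not tested.

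Kcnj13 and Kcne2 are channel genes of the choroid plexus, the epithelium that makes cerebrospinal fluid. Of 3 Kcne members tested, Kcne2 alone was called. Kcnj13 had 13, 1 and 0 counts in bound and 460, 665, 465 and 483 counts in unbound libraries (log2 −7.22, SE 0.54, adjusted p = 6.7e-07), and 49.1% of its exon length lies under Gigyf2 on the other strand. Kcne2 had 10, 0 and 2 and 143, 273, 138 and 122 counts (log2 −5.80, SE 0.68, adjusted p = 2.3e-05). The highest bound count of each was in replicate 1, and without that replicate the fitted values were −10.05 and −7.59, while Kcne2 stood at −5.16 without bound replicate 2. The choroid plexus marker Ttr had 34.5, 6.44 and 4.29 CPM in bound and 1347, 1598, 929 and 909 CPM in unbound libraries, with replicate 1 again the highest of the bound. The 3 markers of that tissue summed to 5.01 to 39.3 CPM in bound and 959 to 1670.3 CPM in unbound RNA, and their part in the result was not tested.

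Kcnj8 is the pore of the KATP channel of pericytes and smooth muscle. It had no count in any bound library and 17, 43, 28 and 29 counts in unbound libraries. It was at least 40.2-fold lower, setting the bound group at 3 counts over its 3 libraries. Kcnmb1, the BK beta subunit of smooth muscle, had 3, 29 and 2 counts in bound and 40, 50, 42 and 29 counts in unbound libraries (log2 −2.37, adjusted p = 0.017). Bound replicate 2 held most of its bound counts, and without it the value was −4.30. The call was lost with the UBS (log2 −2.59, adjusted p = 0.057) or the UBGS libraries alone (log2 −2.11, adjusted p = 0.12). The mural marker Rgs5 had 20.6, 14.9 and 22.7 against 86.4, 75.9, 78.7 and 77.8 CPM, and the 6 endothelial and mural markers together 18.9 to 30.6 against 103 to 119 CPM. Their part in the result was not tested.

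**Figure D3:**
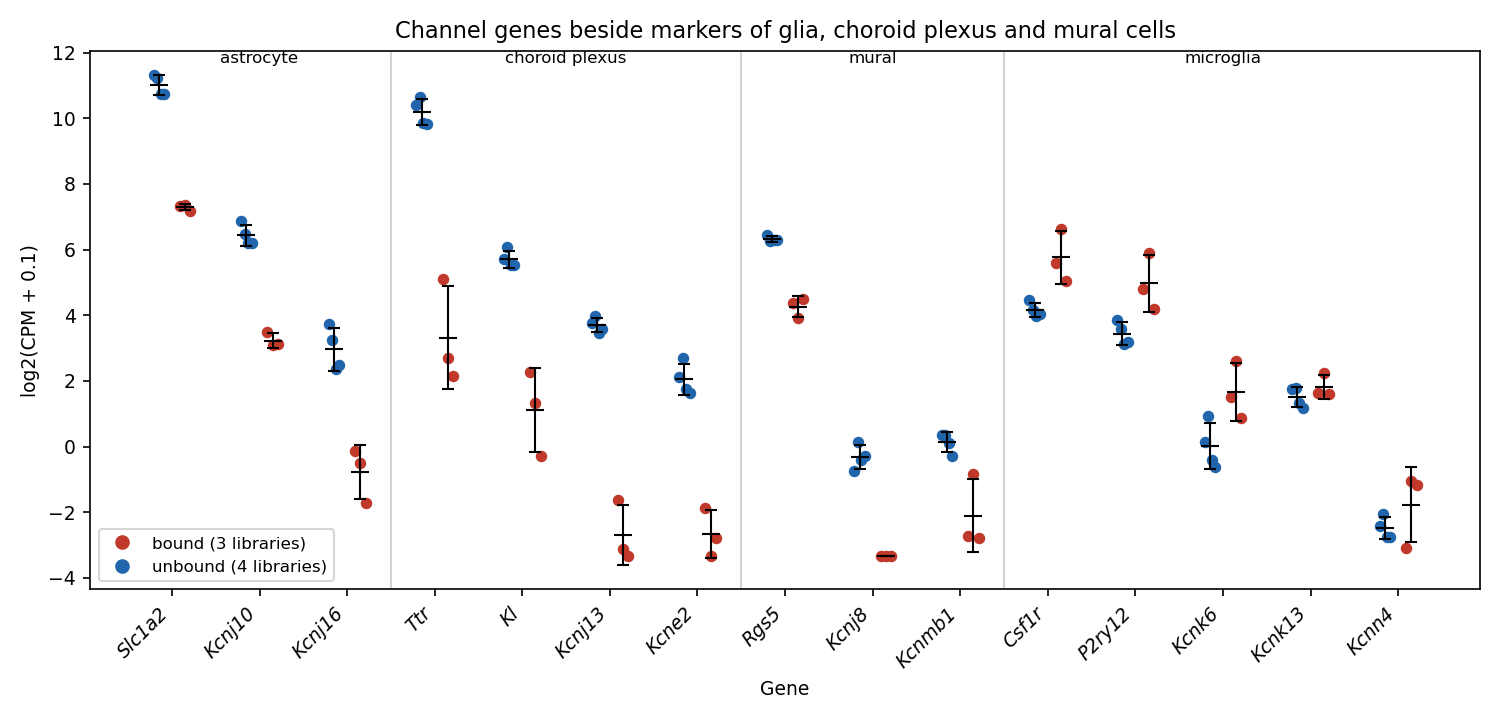
Channel genes of non-neuronal cells beside markers of those cells, as log2(CPM + 0.1) in each library, red for bound and blue for unbound, with black bars for the mean and SD of these log values. The astrocyte, choroid plexus and mural genes have bound libraries below unbound ones, and in the microglia panel bound replicate 2 is the highest library of Csf1r, P2ry12, Kcnk6, Kcnk13 and Kcnn4.

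Kcnk genes encode K2P leak channels. Of 10 members, 2 were higher and 5 lower (median log2 −0.13). Kcnk2 (TREK), a channel opened by stretch and lipids and under an antisense gene over 12.2% of its exons, stood at 9.86, 9.96 and 10.6 CPM in bound and 26.6, 28.2, 24.7 and 26.3 CPM in unbound libraries (log2 −1.39, SE 0.10, adjusted p = 5.5e-07). Its relatives Kcnk10 and Kcnk4 were lower too (log2 −1.78 and −1.73), though Kcnk4 shares 13.1% of its exon length with Catsperz. Kcnk10, which had the largest fall, stood at 2.43, 0.961 and 0.408 against 5.79, 4.44, 3.59 and 3.75 CPM, and at log2 −2.64 without bound replicate 1. That call was lost with the UBGS libraries alone (log2 −1.50). The acid-sensitive TASK genes were split, with Kcnk3 higher (17.2, 16.1 and 19.6 against 7.76, 7.97, 7.52 and 5.90 CPM, log2 1.28, SE 0.14, adjusted p = 1.4e-05) and Kcnk9 lower (log2 −1.41).

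Kcnk1 (TWIK), the most abundant K2P gene per length, was called lower with overlapping groups, at 43.0, 36.3 and 32.1 against 52.6, 51.3, 41.9 and 41.9 CPM (log2 −0.34, SE 0.13, adjusted p = 0.036). The call was lost without bound replicate 2 or 3 (log2 −0.32 and −0.24) without unbound replicate 1 or 2 (log2 −0.26 and −0.28) and with the UBGS libraries alone (log2 −0.15), and with library totals the value was 0.10. Kcnk6, with the largest rise, stood at 2.72, 5.99 and 1.72 CPM in bound and 0.999, 1.82, 0.658 and 0.543 CPM in unbound libraries, which overlapped (log2 1.79, SE 0.49, adjusted p = 0.0084). Its highest bound library was replicate 2, without which it stood at 1.15 (adjusted p = 0.06), and with the UBS libraries alone at 1.31 (adjusted p = 0.084). Kcnk13 (THIK), a channel of microglia, gave 2.98, 4.66 and 2.93 against 3.26, 3.34, 2.42 and 2.15 CPM and was not called (log2 0.34), but passed with library totals (log2 0.77). The microglia marker Csf1r had 48.5, 99.1 and 33.1 CPM in bound and 21.9, 17.8, 15.7 and 16.3 CPM in unbound libraries, highest in the same replicate, and the 6 microglia markers summed to 55.3 to 77.4 CPM in unbound RNA. Their part in these results was not tested.

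Several members at low levels were called in 1 setting or in none. Kcne1l had 5, 16 and 84 counts in bound and 14, 62, 48 and 19 counts in unbound libraries (log2 −0.24), and without bound replicate 3 it was called lower (log2 −2.32). Kcnj14 did not overlap between the groups and still missed the threshold (log2 −1.004, adjusted p = 0.082), which it passed without bound replicate 2 (log2 −1.56). Kcnj5, a GIRK subunit, was not called (log2 0.91) but passed without bound replicate 3 (log2 1.44). Kcnrg, a regulator of Kv assembly and the sole member outside the subfamilies, had 0.582, 0.464 and 0.340 against 0.323, 1.10, 1.15 and 0.494 CPM and was not called. Kcne4, Kcng4, Kcnk5 and Kcnk12 were not called either, although Kcng4 passed with library totals (log2 0.52).

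**Figure D4:**
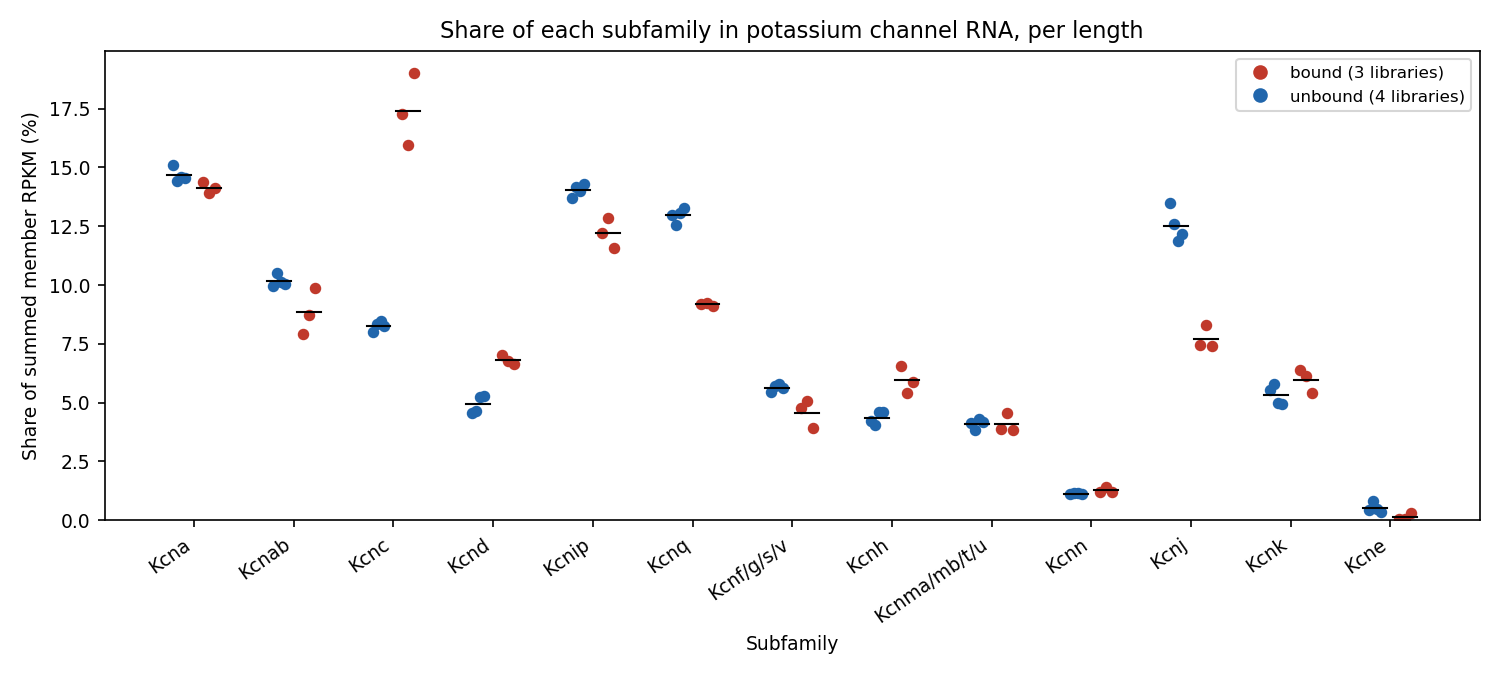
Share of 13 subfamilies in the summed RPKM of all members (vertical axis, percent) in each library, red for bound and blue for unbound, with black bars for the mean. Kcnc took 17.4% in bound and 8.26% in unbound libraries on average, while Kcnj took 7.72% and 12.5%. The sums were 428 to 443 RPKM in bound and 574 to 618 RPKM in unbound libraries.

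Partner genes of these channels that carry other symbols were read from the same fit. Of 27 listed, 26 were tested, and 8 were higher and 12 lower (median log2 −0.19). Over all genes 31.0% were called higher and 30.7% lower. Dpp10 and Dpp6 encode auxiliary subunits of Kv4 channels. Dpp10 was 4.76-fold higher, at 146, 140.3 and 115 against 18.4, 33.0, 30.4 and 30.6 CPM (log2 2.25, SE 0.17, adjusted p = 7.9e-07), while Dpp6 was slightly lower (log2 −0.26, adjusted p = 0.018) but higher after the length correction (log2 0.31) and at log2 0.18 with library totals. Cntnap2, which holds Kv1 channels beside the nodes of Ranvier, was higher (log2 0.88), as was Amigo1, an auxiliary protein of Kv2 channels (log2 0.44). Of other listed partners, Cntn2, Dlg1 and Dlg2 were lower (log2 −0.37, −1.72 and −0.50) and Dlg4 was not called (log2 −0.039). Dlg1 stayed lower with library totals and with the length correction (log2 −1.29 and −1.25), while Cntn2 lost its call in both. Dlg2 lost its call with library totals (log2 −0.068) and was higher after the length correction (log2 0.24). Dlg4 was called higher in both (log2 0.40 and 0.57). Ank3, the ankyrin that anchors Kcnq channels at the axon initial segment, was lower (log2 −1.04) and turned to higher after the length correction (log2 0.20). Lgi1, a secreted protein that acts on Kv1 channels, was lower (log2 −0.91), while its relative Lgi2 was higher (log2 1.21). The sulfonylurea receptors of KATP channels, Abcc8 and Abcc9, were lower at log2 −0.56 (a call lost in both corrections) and −2.80, the latter a partner of Kcnj8 in mural cells. With library totals 13 partners were higher and 4 lower, where 47.5% of all genes were called higher and 18.9% lower. With the length correction 14 were higher and 7 lower, where 30.8% of protein-coding genes were called higher and 29.0% lower.

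Fold changes in this comparison vary with exon length, so members were also set against genes of like length. Members had a median merged exon length of 4533 nucleotides and protein-coding genes tested of 4379. Below 4000 nucleotides the median log2 fold change was −0.26 for 33 members and 0.29 for protein-coding genes. From 4000 to under 8000 nucleotides it was −0.69 for 33 members against −0.15, and from 8000 nucleotides up −0.21 for 14 members against −0.49. With an offset for the length trend in each library, 25 members were called higher and 37 lower, at a member median of −0.39, where 30.8% and 29.0% of all 15100 protein-coding genes in that fit were called.

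**Figure D5:**
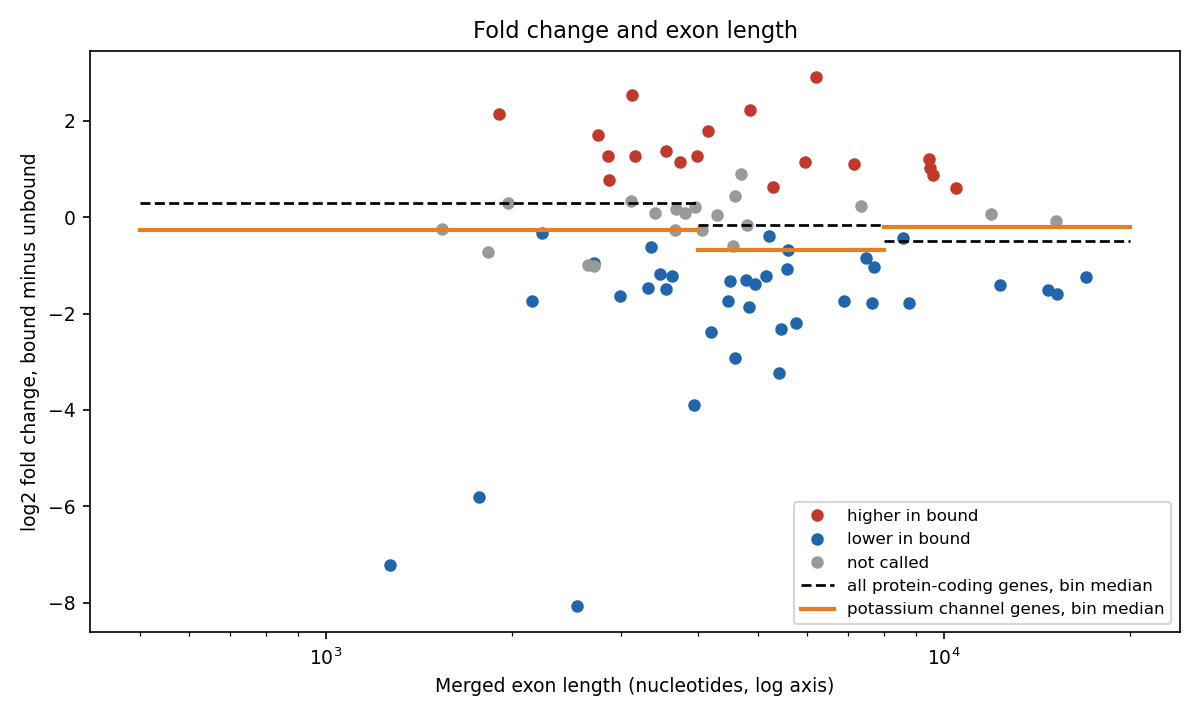
Log2 fold change of 76 tested members (points, coloured by call) against merged exon length (logarithmic axis, nucleotides), with the median of all members tested (orange) and of all protein-coding genes tested (dashed) in 3 length ranges. The orange line is below the dashed one under 8000 nucleotides and above it from 8000 up.

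The 2 title series of the unbound group were compared for the members alone. No member was called between UBS and UBGS libraries (edgeR, 0 of 80 tested, where 0.229% of all genes were called), and 18 had an unadjusted p under 0.05, against 16.8% of all genes. DESeq2 called 1.46% of all genes and 3 members, namely Kcnip3, Kcnj10 and Kcnj16, which stood 0.35, 0.48 and 1.10 higher in UBS on the log2 scale of edgeR. Without unbound replicate 1 or 2, 24 and 31 members were called, against 23.5% and 36.9% of all genes. Without replicate 3 or 4 no member was called, against 0.0794% and 0.0946% of all genes. In these fits the remaining single library had no spread of its own and was given that of the pair.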

How the data were processed

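The deposited table holds raw read counts per Ensembl gene ID for 7 libraries, not normalized. The submitters' processing notes name mm10, HTSeq and STAR, the last as version 2.5.3a. Not given in the sources used here are the annotation release, the strand setting, the library kit and the treatment of multiply mapped reads, so antisense and overlapping genes cannot be separated. IDs were matched to GENCODE M21 (GRCm38, the mm10 assembly), which named 37607 of 39017; 1410 unnamed IDs stayed in the tests.

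The authors' counts went into edgeR 4.0.16 (R 4.3.3): filterByExpr by group, TMM scaling, and the quasi-likelihood test (robust) of 3 bound against 4 unbound libraries, with Benjamini-Hochberg adjustment over all genes tested, a threshold of 0.05 and no minimum fold. CPM use TMM-scaled library sizes, RPKM divide these by merged exon length, and the SE comes from the F statistic. The fit was also run on simulated counts in which few genes were changed, as many up as down. The simulation held no shift in composition between the groups, so it could not check the scaling. DESeq2 1.42.0 was an alternative. Unless stated, adjusted p-values are from edgeR. The length correction is an offset by exon length in each library, over protein-coding genes.

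Members, lists and subfamilies were chosen with earlier results of these data known. Values were given per library for the 2 most abundant members of a subfamily, its largest rise and fall, and members alone in their direction, and for further members chosen after their values were seen. Libraries of a group differed by more than counting noise (chi-square per degree of freedom 5.57 for unbound replicates 3 and 4, 25.0 to 46.3 for the other pairs), so none was merged as a repeat deposit; whether they are biological replicates is not stated. Some members enter the counts and medians over all members but are not reported here singly.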

Additional observations from a re-analysis of the deposited data

Results flagged for a closer look

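In 2 of 80 members, 1 of the 4 unbound libraries stood far from the others by Dixon's test at the 95% level, where chance flags about 1 in 20. Kcnt2, a sodium-activated channel gene, was at 54.6 CPM in unbound replicate 1 and at 39.1, 38.9 and 40.4 CPM in replicates 2 to 4. Kcnv1, a silent subunit gene, was at 30.0 CPM in unbound replicate 1, below the 31.9, 31.8 and 31.8 CPM of the other libraries, a gap that is small beside its distance from the bound libraries (5.44, 4.29 and 2.54 CPM).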

How the results depend on the processing

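No paired analysis was possible because the labels give the bound and unbound libraries no shared replicate number, animal or batch. Of the 76 members reported singly, 47 kept their direction and their side of the threshold in every one of 16 alternatives that gave them a value. Over 1210 pairs of member and alternative, 1125 were unchanged in this sense, 40 lost a call, 23 gained one and 22 changed sign. The sign changes were Kcnb2 (0.36), Kcnc4 (0.18), Kcne1l (0.14), Kcnf1 (0.28), Kcnh5 (0.18), Kcnj3 (0.056) and Kcnk1 (0.10) with library totals; Kcnb2 (0.63), Kcnk12 (−0.14) and Kcnk5 (−0.0073) with the length offset; Kcnj11 (−0.058) with the UBS and Kcnk5 (−0.51) with the UBGS libraries alone. With 1 library left out at a time the values of Kcna2 (−0.00028 to 0.19), Kcnb2 (−0.14 to 0.023), Kcne1l (−2.32 to 0.30), Kcng4 (−0.0065 to 0.21), Kcnh4 (−0.16 to 0.43), Kcnj9 (−0.056 to 0.12) and Kcnk5 (−1.17 to 0.56) crossed 0. Of these members Kcnj3 and Kcnk1 are called in the main analysis, and Kcnb2 was called after its change of sign in both corrections.

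With library totals 9285 genes were higher and 3704 lower, the medians were 0.43 for all genes and 0.075 for members, partner genes gave 13 higher and 4 lower, Kcnab 1 lower, silent subunits 2 higher and 3 lower, Kcnj 3 higher and Kcnn 2 higher. With a 1.5-fold minimum 3246 genes were higher and 3608 lower, partners gave 4 and 4, and Kcnab 1 lower, Kcnd 1 higher, silent subunits 3 lower and Kcnn 0 higher remained as counts. With the length offset partners gave 14 higher and 7 lower, Kcnab 1 lower and Kcnn 2 higher. DESeq2 gave an all-gene median of −0.22, and no filter on low counts −0.17. The member medians there were −0.37 and −0.34, so that members lay −0.15 and −0.17 from all genes, less than in the main analysis. With the UBS libraries alone the member median was −0.42, with 1 higher Kcnk gene, and with the UBGS libraries alone 3 Kcnk genes were lower and the all-gene median was 0.033. Leaving out 1 library at a time gave member medians from −0.45 to −0.29, 1 to 2 lower Kcne, 1 to 2 higher Kcnj, 1 to 2 higher Kcnk and 0 to 1 higher Kcnn genes, and 0 to 31 members between the UBS and UBGS series, where DESeq2 gave 3. The causes were not tested. The alternatives of the comparison of UBS with UBGS were chosen after the data were seen. At these depths counting error limits members with low counts, and the spread between libraries limits the rest.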
